A study of Mus musculus with 4 samples.

Results

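The genes described here encode the SEL1L-HRD1 ubiquitin ligase complex of endoplasmic reticulum (ER)-associated degradation (ERAD) and the proteins that work with it. They were chosen by symbol, and all 9 listed genes were found among the 32286 features counted: Sel1l, Syvn1, Os9, Erlec1, Herpud1, Ube2j1, Ube2g2, Selenos and Vcp. RNA of single nuclei was counted in 4 libraries from the cortex and hippocampus of mice aged 5 weeks, each library being the sorted nuclei of 1 mouse. The 2 libraries labelled Sel1L flox/flox come from mice that carry the floxed Sel1L allele and, by their label, no Cre, and the 2 labelled Sel1L Syn-Cre come from mice that carry the same floxed allele and a Cre transgene under the Synapsin I promoter, which is active in postmitotic neurons. Replicate 1 of each label is a male and replicate 2 a female. The Cre line limits the model to cells in which this promoter is active, and the protein that the deletion removes was not measured in these libraries.

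ERAD returns misfolded proteins from the ER to the cytosol, where the proteasome degrades them. SEL1L is the adaptor that holds the complex together and brings substrates to HRD1, the membrane-embedded ubiquitin ligase encoded by Syvn1. The lectins OS9 and ERLEC1 read the trimmed sugars of misfolded glycoproteins, HERPUD1 is a ubiquitin-like-domain protein of the ER membrane that joins the complex, UBE2J1 and UBE2G2 are ubiquitin-conjugating enzymes, SELENOS is a selenoprotein that helps to recruit the AAA ATPase VCP (p97), and VCP pulls the substrate out of the membrane. Herpud1, Sel1l, Syvn1 and Selenos are known targets of the unfolded protein response (UPR), the set of signals that raises folding and degradation capacity when proteins build up in the ER.

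Promoter sequences are shown for Sel1l, Syvn1, Herpud1 and Selenos, because these are the members whose difference between labels varied among neuronal types. Each is the 250 bases before the RefSeq start site (GRCm38.p6), 5′ to 3′ on the strand of the gene, at chr12:91849158-91849407 (minus strand) for Sel1l, chr19:6046326-6046575 (plus) for Syvn1, chr8:94386179-94386428 (plus) for Herpud1 and chr7:66079399-66079648 (plus) for Selenos. Capitals mark matches to 4 motifs searched on both strands, which are ERSE (CCAAT and CCACG with 9 bases between them), ERSE-II (ATTGG and CCACG with 1 base between them), UPRE (TGACGTGG) and the C/EBP-ATF response element CARE (TTGCATCA).
Sel1l: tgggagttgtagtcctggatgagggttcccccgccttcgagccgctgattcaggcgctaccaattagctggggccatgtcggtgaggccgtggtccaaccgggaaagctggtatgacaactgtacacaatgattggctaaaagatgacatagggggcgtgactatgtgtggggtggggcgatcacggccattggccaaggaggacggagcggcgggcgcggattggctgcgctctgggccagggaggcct
Syvn1: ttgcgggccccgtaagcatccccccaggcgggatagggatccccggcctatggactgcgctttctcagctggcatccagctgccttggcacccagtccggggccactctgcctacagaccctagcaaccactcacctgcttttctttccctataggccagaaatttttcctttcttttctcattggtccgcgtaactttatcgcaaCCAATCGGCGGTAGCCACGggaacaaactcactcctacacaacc
Herpud1: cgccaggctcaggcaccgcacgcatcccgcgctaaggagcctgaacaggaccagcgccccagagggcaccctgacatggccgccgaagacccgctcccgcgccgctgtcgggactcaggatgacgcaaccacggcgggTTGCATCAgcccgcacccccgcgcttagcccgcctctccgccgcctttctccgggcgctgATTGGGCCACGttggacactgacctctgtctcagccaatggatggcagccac
Selenos: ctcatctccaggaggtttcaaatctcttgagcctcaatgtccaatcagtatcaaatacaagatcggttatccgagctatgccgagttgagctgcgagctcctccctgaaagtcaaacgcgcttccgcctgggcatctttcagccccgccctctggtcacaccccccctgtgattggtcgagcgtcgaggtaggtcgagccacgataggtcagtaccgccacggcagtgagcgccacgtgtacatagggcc
The Syvn1 window held an ERSE match that began 44 bases before the start site, and 0.113% of 32851 RefSeq promoter windows of the same length held one. The Herpud1 window held an ERSE-II match 52 bases before the start site and a CARE match 112 bases before it, which 0.0304% and 0.791% of all windows held. It ends in CCAAT and CCAC with 9 bases between them, all but the last letter of an ERSE. Bases past the window were not searched, so whether an ERSE crosses its edge was not tested. UPRE letters, found in 0.563% of windows, were present for Vcp and on the other strand for Ube2j1. The Sel1l, Selenos and Os9 windows held none of the 4 motifs. The reverse complement of the UPRE letters begins with the CCACG that ends both ERSE forms, but no match in these windows overlapped another. A match is a run of letters and not a measured binding site. RefSeq windows were matched for 7 of the 9 genes and not for Erlec1 and Ube2g2.

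In GENCODE vM21 (GRCm38), Sel1l (ENSMUSG00000020964) lies at chr12:91806043-91849157 on the minus strand, Syvn1 (ENSMUSG00000024807) at chr19:6046576-6053712 on the plus strand and Herpud1 (ENSMUSG00000031770) at chr8:94386438-94395377 on the plus strand. Os9 (ENSMUSG00000040462) lies at chr10:127095650-127121131 (minus), Erlec1 (ENSMUSG00000020311) at chr11:30930774-30954335 (minus), Ube2j1 (ENSMUSG00000028277) at chr4:33031416-33052363 (plus), Ube2g2 (ENSMUSG00000009293) at chr10:77622275-77645993 (plus), Selenos (ENSMUSG00000075701) at chr7:66079649-66089405 (plus) and Vcp (ENSMUSG00000028452) at chr4:42979963-43000507 (minus). Syvn1 shares 91 exonic bases with Mrpl49 and Vcp 352 with 1700022I11Rik, both on the other strand. The sources used here do not state whether strand was used in counting, so whether reads of these partners were kept apart is not known. Herpud1 and Erlec1 are crossed by Gm15890 and Asb3 on the other strand with 0 shared exonic bases, while Ube2g2 shares 166 exonic bases with Gm49325 and 84 with Mir1930 on its own strand. Neither is among the features counted, so no UMIs were counted under their names. Whether reads of these bases were counted for Ube2g2 is not known.

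After filtering, 33281 nuclei remained (6797 to 11092 a library, with medians of 7274 to 8391 unique molecular identifiers, UMIs, a nucleus), and 29413 of them fell into clusters named by marker genes. Of the named types, 18 neuronal and 6 non-neuronal had at least 10 nuclei in every library and were tested. Levels are UMIs of a gene per 1000000 UMIs of that type in that library (CPM), with flox/flox-labelled replicates 1 and 2 given before Syn-Cre-labelled replicates 1 and 2. Fold changes come from edgeR's quasi-likelihood test on the summed counts with TMM scaling, and the Benjamini-Hochberg adjustment covers every gene tested in that type. Because these are 3′ counts, levels were compared between cells for one gene and never between genes.

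The targeted gene did not separate the labels in the direction of a loss of RNA. Over whole libraries Sel1l stood at 96.8 and 90.0 CPM in the libraries labelled Sel1L flox/flox and at 155 and 128 CPM in those labelled Sel1L Syn-Cre. Which exons the floxed allele removes is not given in the sources used here, so it is not known whether the counted 3′ end lies in the deleted part, and the labelled deletion cannot be read from the Sel1l count. Cre RNA was counted in both libraries labelled Sel1L Syn-Cre (235 and 218 UMIs) and also in the library labelled Sel1L flox/flox replicate 1 (409 UMIs, 4.05 CPM), whereas flox/flox-labelled replicate 2 had 0 UMIs, which allows up to 0.0438 CPM at a floor of 3 counts. In Herpud1 and in Derl3, an ER membrane derlin, flox/flox-labelled replicate 1 lay with flox/flox-labelled replicate 2. Herpud1 stood at 21.9 and 23.5 CPM against 57.4 and 44.6 CPM, and Derl3 at 0.505 and 0.584 CPM against 16.5 and 10.2 CPM. Both genes are compared between labels below, so these values do not test the label of that library. Results are given by label, and label differences that passed are also given without flox/flox-labelled replicate 1. The comparison of classes, the order of levels and the likeness of patterns rest on both flox/flox-labelled libraries and were not repeated without it, since 1 library would remain.

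Levels among cell classes were first compared in the libraries labelled Sel1L flox/flox, each class against excitatory neuron-like nuclei. Of 54 gene-by-class pairs, 21 passed the test, 15 higher and 6 lower than in excitatory neurons. Of all gene-by-class tests in this fit 51.9% passed, so the share of the 54 member pairs (38.9%) was no larger than that of genes at large. With scaling by library totals in place of TMM, 29 pairs passed, 27 higher and 2 lower, because that scaling moved the fold changes up by a median of 0.12 (inhibitory neurons, oligodendrocytes) to 0.87 (endothelial) on the log2 scale, and 17 pairs passed under both with the same sign.

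Herpud1 was the member with the widest range between classes. It stood at 14.7 and 17.3 CPM in excitatory neuron-like nuclei of the 2 flox/flox-labelled libraries, 29.9 and 38.6 in inhibitory neuron-like, 52.3 and 40.2 in astrocyte-like, 51.0 and 47.8 in oligodendrocyte-like and 85.8 and 71.6 CPM in microglia-like nuclei. Every class lay above excitatory neurons in both libraries, with log2 differences from 0.65 in oligodendrocyte precursor cell (OPC)-like to 2.16 in endothelial-like nuclei, and all 6 passed under either scaling. The endothelial-like value, 129 and 128 CPM, rests on 24 and 5 UMIs. Among these classes Selenos was highest in astrocyte-like nuclei, at 55.7 and 62.2 CPM against 13.2 and 15.4 in excitatory neurons (log2 difference 1.63). It was also higher in OPC-like (32.5 and 45.2 CPM, 1.07), oligodendrocyte-like (26.3 and 36.0 CPM, 0.97) and microglia-like nuclei (25.8 and 39.7 CPM, 0.63), all under both scalings.

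The ubiquitin-conjugating enzymes differed in direction in oligodendrocyte-like nuclei, Ube2j1 being higher (0.41) and Ube2g2 lower than in excitatory neurons. Ube2j1 reached 138 and 142 CPM in microglia-like nuclei, against 38.3 and 43.7 CPM in excitatory neurons (log2 difference 1.24). Ube2g2 stood at 10.5 and 11.5 CPM in oligodendrocyte-like nuclei against 16.4 and 15.6 CPM (−0.68), and its lower values in OPC-like (−0.69) and astrocyte-like nuclei (−0.97) did not pass with library totals. Os9 was higher in OPC-like nuclei, at 69.7 and 65.6 CPM against 32.5 and 29.4 CPM (0.78). Vcp was higher in oligodendrocyte-like nuclei, at 92.6 and 77.1 against 52.6 and 50.7 CPM (0.59). For the core of the complex, Sel1l stood at 95.9 and 89.4 CPM in excitatory and 98.2 and 96.9 CPM in inhibitory neuron-like nuclei, its lower value in astrocyte-like nuclei (−0.59) did not pass with library totals, its endothelial-like value (−1.73) rests on 11 and 1 UMIs, and Syvn1 passed in no class. Erlec1 passed only in endothelial-like nuclei (−0.80), where library totals turned the sign.

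**Figure D1:**
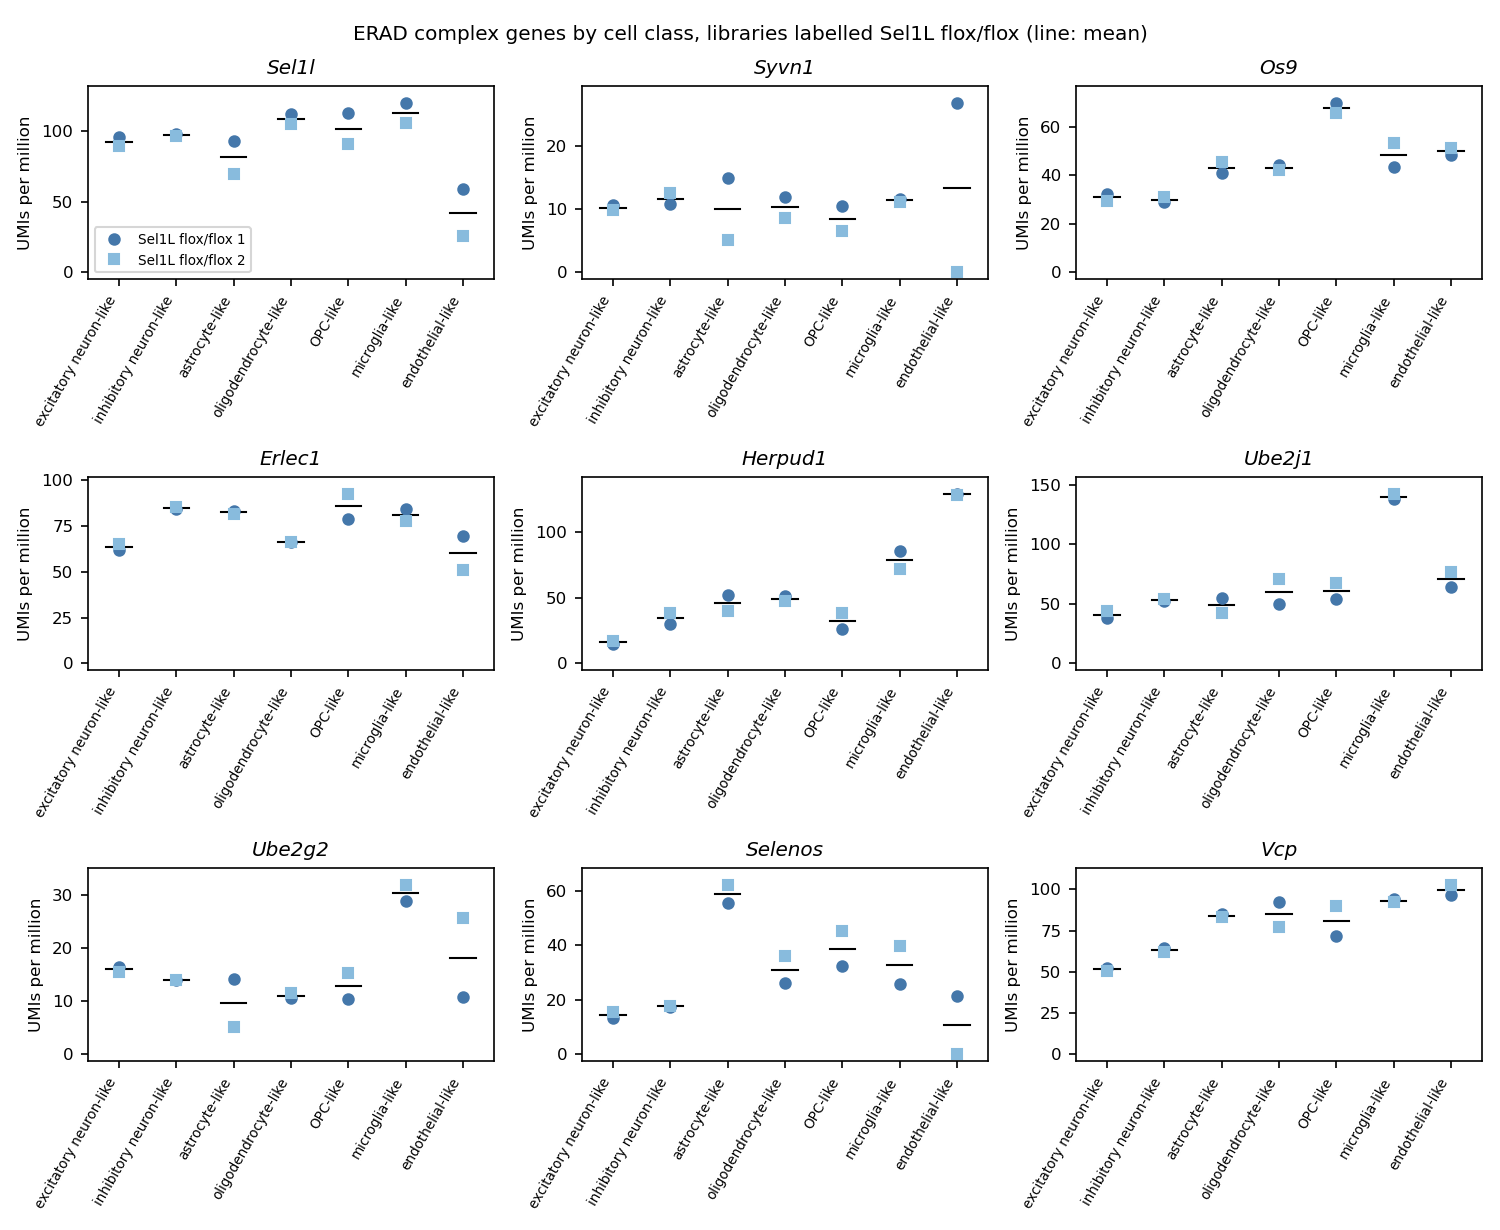
CPM of each gene (y axis) in 7 cell classes (x axis) of the 2 libraries labelled Sel1L flox/flox, 1 point per library, with a line at the mean. Herpud1 is lowest in excitatory neuron-like nuclei in both libraries, Selenos stands out in astrocyte-like and Ube2j1 in microglia-like nuclei, and Sel1l lies between 89.4 and 120 CPM in all but astrocyte-like and endothelial-like nuclei.

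Over the 24 types, the order of levels in the flox/flox-labelled libraries was mostly not resolved between neighbours. Of 23 neighbouring pairs in the order, the 2 libraries of one type lay apart from those of the next in 1 pair for Sel1l, Syvn1 and Ube2g2, 0 for Os9, 2 for Erlec1, 4 for Ube2j1 and 5 for Herpud1, Selenos and Vcp. Among types with at least 20 UMIs in each flox/flox-labelled library, Sel1l went from 115 and 129 CPM in Lamp5-like interneurons to 80.9 and 72.3 CPM in dentate gyrus (DG)-like granule neurons, a range of 1.59-fold over 19 types. Herpud1 went from microglia-like nuclei down to 9.79 and 10.8 CPM in CA1-like pyramidal neurons, 7.63-fold over 17 types, and Selenos from astrocyte-like nuclei to 8.03 and 9.61 CPM in layer 5 pyramidal tract (L5 PT)-like neurons, 6.69-fold over 17 types. Ube2j1 spanned 4.47-fold (19 types, lowest in L5 PT-like neurons at 28.1 and 34.7 CPM), Ube2g2 2.89-fold (14 types), Os9 2.73-fold (19 types), Vcp 2.05-fold (19 types), Syvn1 1.74-fold (10 types) and Erlec1 1.69-fold (19 types). The genes whose flox/flox pattern over the 24 types was most like that of Herpud1 were Tbcb, Ctsl, Oip5os1, B3gat3 and Aga (Pearson r 0.93 each, of 16045 genes compared), and for Sel1l they were Zfp59, 1700054A03Rik, 4831440D22Rik, Chd8 and Tmem143 (r 0.79 to 0.83). Sel1l and Herpud1 had r −0.08 with each other, while Herpud1 had r 0.78 with Ube2j1 and 0.71 with Vcp. These r values describe 24 types of 2 shared libraries that differ in depth, and no floor on UMIs was set for them. Sel1l rests on 24 and 9 UMIs in fibroblast or pericyte-like nuclei, its highest type, and on 11 and 1 in endothelial-like nuclei, its lowest. Of the genes named for it, 1700054A03Rik reached at most 11.3 CPM, in fibroblast or pericyte-like nuclei. Counting error in rare types can therefore shape which genes are named.

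Between labels, members of the complex were higher in the libraries labelled Sel1L Syn-Cre in some neuronal types and were not called in others. Of 151 gene-by-type pairs tested in 18 neuronal types (11 more did not pass the filter on low counts), 21 passed, all higher, in 9 types, with log2 fold changes of 0.58 to 2.74. This is 13.9% of the pairs, against 1.37% of all gene-by-type tests in either direction and 0.762% in that direction. The share is not even over the members. Herpud1 gave 9 of the calls, Sel1l, the gene that the label targets, 5, Selenos 4, Syvn1 2 and Os9 1. Erlec1, Ube2j1, Ube2g2 and Vcp gave 0. The genes were chosen with earlier results of these data known, so the share is a description. Both Syn-Cre-labelled libraries lay above both flox/flox-labelled libraries in 95 of 161 pairs with at least 10 UMIs (59.0%, against 24% of all such pairs) and below in 2. The share of all pairs that lay below is not given, so the latter is a count only. The median log2 fold change of the members was 0.26, where medians over all tested genes of a type were −0.01 to 0.01. Without flox/flox-labelled replicate 1, 21 of the 25 pairs called in neuronal and non-neuronal types still passed, and those lost are named with their genes below.

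**Figure D2:**
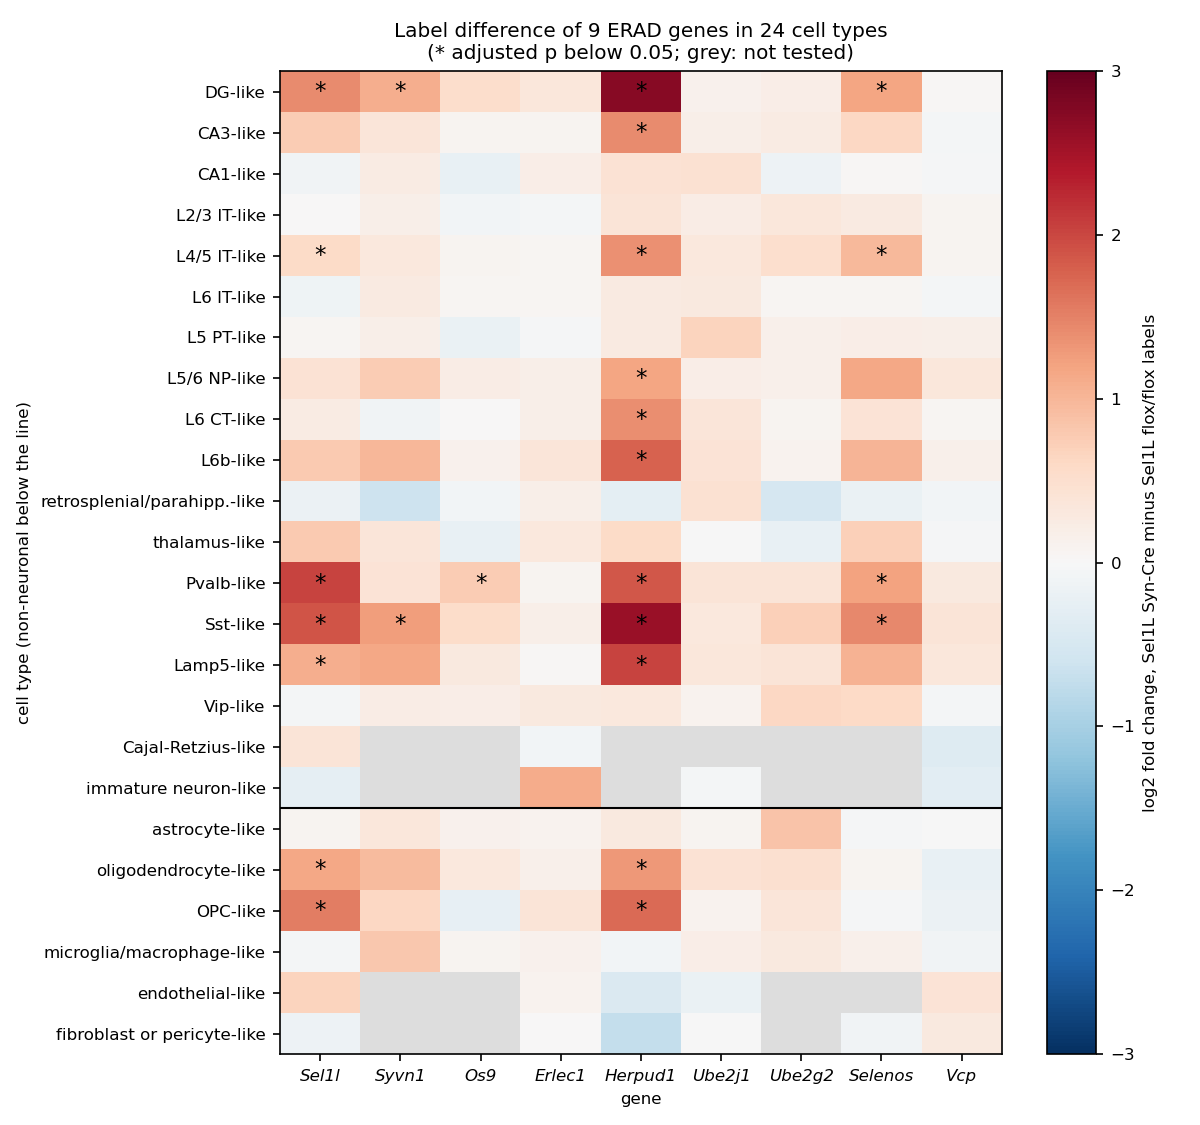
Log2 fold change between labels (colour, red higher in libraries labelled Sel1L Syn-Cre) of the 9 genes (x axis) in 24 cell types (y axis, non-neuronal types below the line), with stars at an adjusted p below 0.05 and grey where a gene was not tested. Stars fall in the columns of Sel1l, Syvn1, Os9, Herpud1 and Selenos, and below the line only in the oligodendrocyte-like and OPC-like types.

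Counted RNA of Sel1l, the targeted gene, was higher under the Syn-Cre label in DG-, layer 4/5 intratelencephalic (L4/5 IT)-, Lamp5-, Pvalb- and Sst-like neurons. Whether these counts come from the deleted allele is not known, so they do not show a rise of the protein. In the paper, staining for SEL1L protein was lost in some cortical neurons and nearly all CA3 and DG neurons, and largely kept in CA1. In Pvalb-like interneurons Sel1l RNA stood at 92.1 and 88.9 CPM in the flox/flox-labelled libraries and at 468 and 309 CPM in the Syn-Cre-labelled libraries (log2 fold change 2.03 ± 0.18 SE, edgeR adjusted p = 4.11e-05). In Sst-like interneurons it stood at 99.0 and 96.9 against 458 and 313 CPM (1.90 ± 0.17, edgeR adjusted p = 5.12e-07). In both types the labels lay far apart and Syn-Cre-labelled replicate 1 was the higher library. In DG-like neurons the values were 80.9 and 72.3 against 235 and 192 CPM (1.42 ± 0.13, edgeR adjusted p = 1.44e-05), and in Lamp5-like interneurons 115 and 129 against 324 and 236 CPM (1.09 ± 0.18, edgeR adjusted p = 0.00727). The L4/5 IT-like values were 87.2 and 89.3 against 141 and 132 CPM (0.58 ± 0.12, edgeR adjusted p = 0.0398). The Lamp5-like and L4/5 IT-like calls were not kept without Syn-Cre-labelled replicate 1 (0.81 and 0.49), nor the latter without Syn-Cre-labelled replicate 2 (0.67).

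Both Syn-Cre-labelled libraries lay above both flox/flox-labelled libraries in Sel1l in 11 of 18 neuronal types (against 24% of all pairs), 5 of them called, and the labels overlapped in the other 7. Among these 7, CA1-like neurons had 119 and 112 against 117 and 103 CPM (−0.12 ± 0.14), layer 2/3 (L2/3) IT-like neurons 95.4 and 85.2 against 95.6 and 87.7 CPM (0.01), and Vip-like interneurons 96.5 and 91.2 against 94.6 and 87.7 CPM (−0.06). Of the 6 types in which the labels did not overlap but the test did not pass, CA3-like neurons had 96.5 and 106 against 187 and 175 CPM (0.76 ± 0.12, edgeR adjusted p = 0.124).

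Herpud1, the ER-membrane partner of the ligase, passed in more types than any other member, 9 of the 16 neuronal types in which it was tested. In DG-like neurons it stood at 11.5 and 13.4 CPM against 115 and 56.0 CPM (2.74 ± 0.27, edgeR adjusted p = 3.58e-05), and in Sst-like interneurons at 25.5 and 31.0 against 208 and 149 CPM (2.59 ± 0.19, edgeR adjusted p = 2.97e-08). The Syn-Cre-labelled libraries lay above the flox/flox-labelled libraries by several fold in both, and differed from each other most in DG-like neurons. Lamp5-like (31.3 and 31.4 against 150 and 129 CPM, 2.03 ± 0.20, edgeR adjusted p = 0.000423) and Pvalb-like interneurons (35.9 and 49.8 against 204 and 122 CPM, 1.87 ± 0.22, edgeR adjusted p = 0.000354) followed.

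In cortical layers Herpud1 passed the test between labels also in types where Sel1l did not. Layer 6b (L6b)-like neurons had 15.8 and 14.2 against 71.3 and 39.9 CPM of Herpud1 (1.78 ± 0.33, edgeR adjusted p = 0.0221). Layer 6 corticothalamic (L6 CT)-like neurons had 13.1 and 15 against 39.8 and 36.7 CPM (1.39 ± 0.16, edgeR adjusted p = 0.0146), and layer 5/6 near-projecting (L5/6 NP)-like neurons 23.0 and 22.5 against 48.0 and 59.3 CPM (1.18 ± 0.20, edgeR adjusted p = 0.00727). The labels did not overlap in any of these types. L4/5 IT-like neurons had 19.1 and 23.0 against 60.6 and 52.2 CPM (1.38 ± 0.16, edgeR adjusted p = 0.00276) and CA3-like neurons 16.6 and 19.5 against 53.9 and 46.4 CPM (1.41 ± 0.19, edgeR adjusted p = 0.0438). CA1-like neurons, at 9.79 and 10.8 against 13.3 and 15.3 CPM, did not pass (0.43). The CA3-like call was lost without either flox/flox-labelled library (1.30 without replicate 1), the L6b-like call without Syn-Cre-labelled replicate 1 (1.27) and the L5/6 NP-like call without Syn-Cre-labelled replicate 2 (1.04). For Sel1l, the log2 label difference exceeded that of CA1-like neurons by 0.88 in L6b-, 0.58 in L5/6 NP- and 0.39 in L6 CT-like neurons. None of these passed, which does not show that Sel1l was unchanged there. For Herpud1 the same differences from CA1-like neurons were 1.35, 0.78 and 0.98, and none of them passed either (edgeR adjusted p from 0.486 to 0.927). The 2 genes are therefore not shown to differ from each other in these types.

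**Figure D3:**
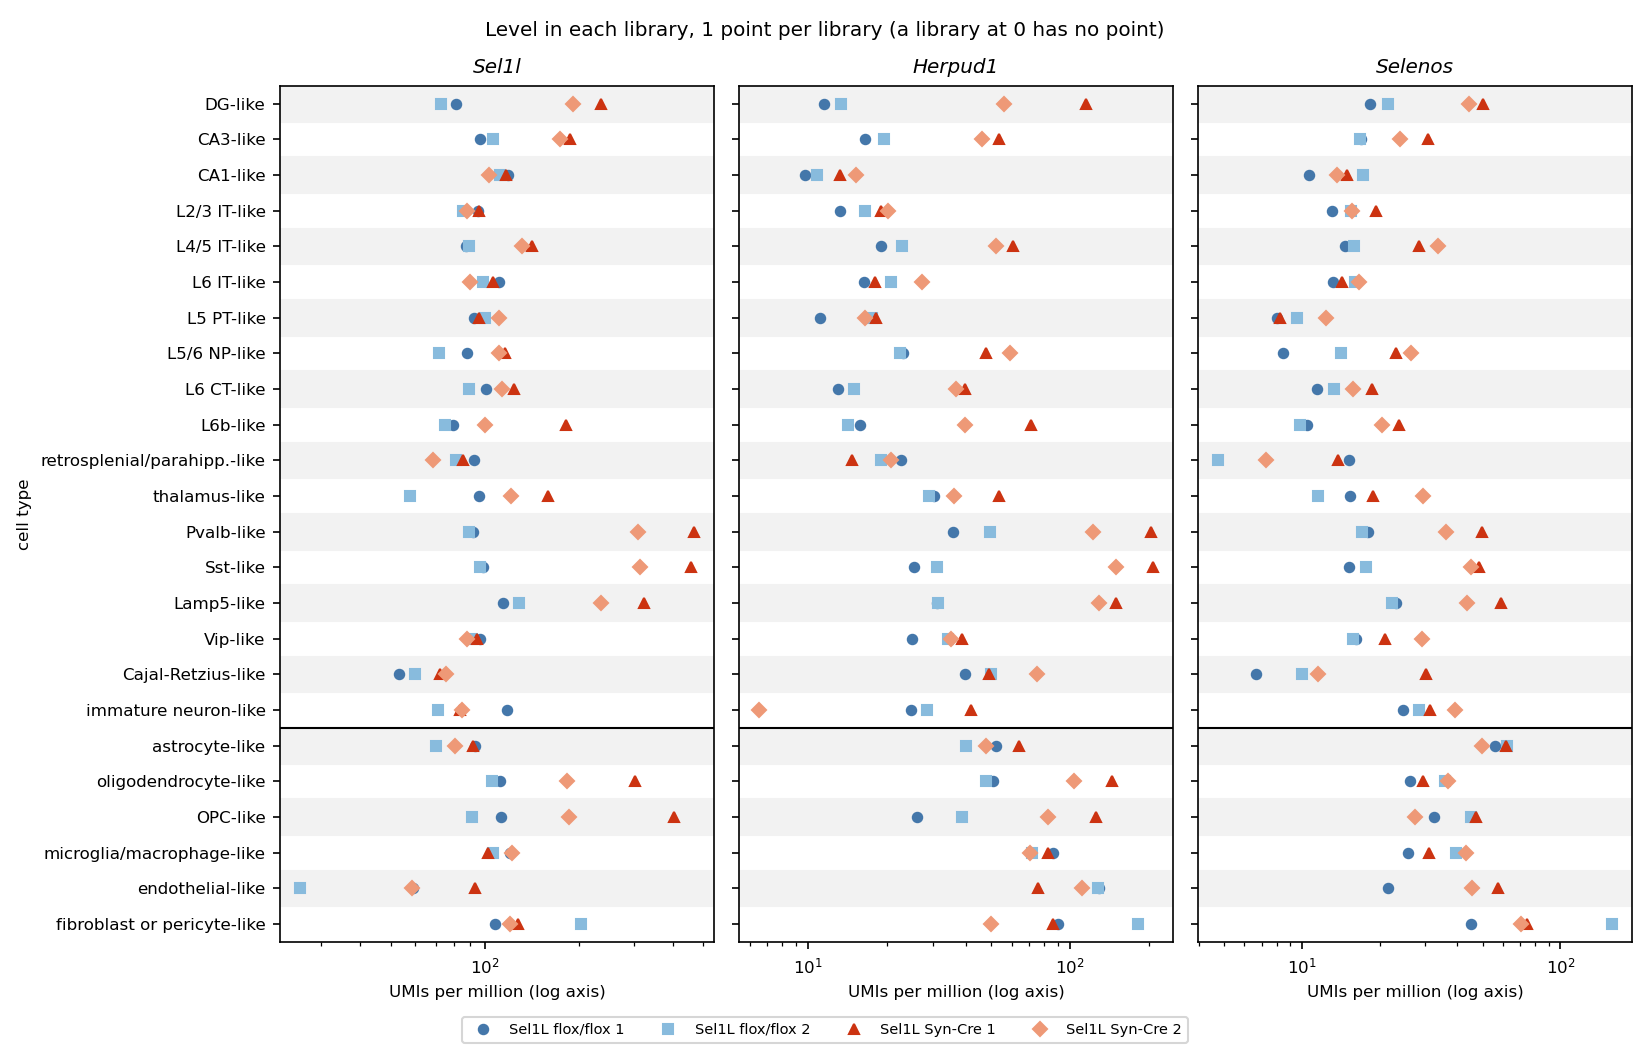
CPM (x axis, log scale) of Sel1l, Herpud1 and Selenos in 24 cell types (y axis, non-neuronal types below the line), 1 point per library. In DG-, Pvalb-, Sst- and Lamp5-like neurons both libraries labelled Sel1L Syn-Cre lie to the right of both labelled Sel1L flox/flox for all 3 genes, and in oligodendrocyte-like and OPC-like nuclei for Sel1l and Herpud1 but not Selenos.

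Selenos, the selenoprotein that links the membrane complex to VCP, rose in DG-, L4/5 IT-, Pvalb- and Sst-like neurons. It stood at 15.2 and 17.7 against 48.5 and 45.1 CPM in Sst-like interneurons (1.44 ± 0.22, edgeR adjusted p = 0.000226) and at 18.4 and 21.6 against 50.01 and 44.4 CPM in DG-like neurons (1.19 ± 0.16, edgeR adjusted p = 0.000646). In Pvalb-like interneurons it stood at 18.1 and 17.1 against 49.7 and 36.2 CPM (1.21 ± 0.22, edgeR adjusted p = 0.00564), and in L4/5 IT-like neurons at 14.7 and 16.0 against 28.4 and 33.8 CPM (0.97 ± 0.16, edgeR adjusted p = 0.0159). The labels were apart in all 4 types, and both Syn-Cre-labelled libraries lay above in 14 of 18 neuronal types in all (against 24% of all pairs). Without Syn-Cre-labelled replicate 2 the L4/5 IT-like call was lost (0.87). Lamp5-like (23.1 and 22.4 against 58.8 and 43.4 CPM, 1.04, edgeR adjusted p = 0.0853) and L5/6 NP-like neurons (8.47 and 14.2 against 23.2 and 26.5 CPM, 1.15, edgeR adjusted p = 0.0824) had fold changes of like size that did not pass.

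Syvn1, the ligase, and Os9, a lectin, passed in few types. Syvn1 had 8.84 and 10.2 against 30.3 and 16.7 CPM in Sst-like interneurons (1.25 ± 0.32, edgeR adjusted p = 0.0177) and 11.1 and 9.10 against 26.5 and 18.7 CPM in DG-like neurons (1.09 ± 0.23, edgeR adjusted p = 0.016). Os9 had 27.1 and 22.4 against 47.6 and 41.8 CPM in Pvalb-like interneurons (0.76 ± 0.19, edgeR adjusted p = 0.0403). The labels did not overlap in these 3 pairs, and each call was lost without either flox/flox-labelled library and without Syn-Cre-labelled replicate 1. Without flox/flox-labelled replicate 1, the values were 1.17 for Syvn1 in Sst-like, 1.27 for Syvn1 in DG-like and 0.95 for Os9 in Pvalb-like neurons. Syvn1 in Lamp5-like interneurons (9.51 and 13.5 against 28.9 and 25.8 CPM, 1.17) had an edgeR adjusted p of 0.146.

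Erlec1, Ube2j1, Ube2g2 and Vcp passed in no neuronal type. Ube2j1 was higher in both Syn-Cre-labelled libraries in 14 of 18 types (against 24% of all pairs), with log2 fold changes of −0.06 to 0.67, the largest in L5 PT-like neurons (28.1 and 34.7 against 45.5 and 56.9 CPM, edgeR adjusted p = 0.297). Erlec1 lay above in 11 types with fold changes of −0.08 to 1.12, the largest in immature neuron-like nuclei, where it rests on 17, 10, 32 and 21 UMIs. The share of all pairs, 24%, applies to Erlec1 as well, and to Ube2g2 and Vcp, which lay above in 8 types each. Their values in Sst-like interneurons were 14.5 and 13.9 against 27.0 and 22.5 CPM for Ube2g2 (0.72, edgeR adjusted p = 0.103) and 63.6 and 64.8 against 91.0 and 87.5 CPM for Vcp (0.39, edgeR adjusted p = 0.138).

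By type, 4 of the 9 genes passed in DG-like neurons (2.08% of all genes passed and were higher) and in Pvalb-like (2.41%) and Sst-like interneurons (4.84%), 3 passed in the L4/5 IT-like type (1.13%), 2 in the Lamp5-like type (0.734%) and 1, Herpud1, in CA3-, L5/6 NP-, L6 CT- and L6b-like neurons (0.041%, 0.195%, 0.262% and 0.151%). Summed markers of neurons were higher in the Syn-Cre-labelled libraries in Pvalb-like (18392 and 19261 against 15114 and 15653 CPM), Sst-like (18522 and 19673 against 16011 and 17357 CPM) and Lamp5-like nuclei (16556 and 15873 against 14339 and 14603 CPM). This also held in L6b-like nuclei and in L5 PT-like nuclei (15858 and 16324 against 15565 and 15824 CPM), and no member passed in the latter. Single neuron markers went both ways. Of 8, both Syn-Cre-labelled libraries were higher in 3 and lower in 3 in Pvalb-like, 3 and 2 in Sst-like, and 2 and 2 in Lamp5-like nuclei. Summed markers of oligodendrocytes were lower in DG-like nuclei (256 and 247 against 357 and 324 CPM) and also in Sst-, Lamp5-, L5/6 NP-, L6 CT- and L6b-like nuclei. They were lower as well in types where no member passed. These were Vip-like (41.5 and 41.7 against 133 and 106 CPM), retrosplenial or parahippocampal-like (66.2 and 74.8 against 128 and 101 CPM), Cajal-Retzius-like and immature neuron-like nuclei. Summed OPC markers were lower in Lamp5-like nuclei (152 and 144 against 363 and 275 CPM), DG-like nuclei (23.0 and 19.8 against 35.4 and 34.6 CPM) and CA3-like nuclei. The same held in L2/3 IT-, L5 PT-, thalamus- and immature neuron-like nuclei, where no member passed. The part of these marker sums in the member differences was not tested.

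Whether the label difference was the same in all neuronal types was tested as an interaction of type and label in 1 fit over 18 types, in which 6.27% of 17012 genes passed. It was not the same for Sel1l (edgeR adjusted p = 1.13e-16), Herpud1 (1.38e-10), Selenos (0.0014) and Syvn1 (0.0255). Os9 (0.0648), Erlec1 (0.518), Vcp (0.611), Ube2j1 (0.674) and Ube2g2 (0.785) did not pass. Without flox/flox-labelled replicate 1, Sel1l, Herpud1 and Selenos passed and Syvn1 did not, and without either Syn-Cre-labelled library only Sel1l and Herpud1 passed.

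Set against CA1-like neurons one type at a time, 14 of 153 member differences passed, all larger than in CA1, where 0.326% of all such tests did. For Sel1l the extra log2 difference was 2.11 in Pvalb-like (edgeR adjusted p = 6.05e-13), 1.98 in Sst-like (9.88e-12), 1.51 in DG-like (2.31e-08), 1.17 in Lamp5-like (0.000282), 0.89 for the CA3-like type (0.026) and 0.70 for the L4/5 IT-like type (0.044). For Herpud1 it was 2.26 in DG-like, 2.14 in Sst-like, 1.57 in Lamp5-like and 1.42 in Pvalb-like neurons (edgeR adjusted p from 1.25e-05 to 0.0408). Selenos differed from CA1 in Sst-like (1.36), Pvalb-like (1.12) and DG-like neurons (1.11), and Os9 in Pvalb-like interneurons (0.96). Without flox/flox-labelled replicate 1, 8 of these 14 passed, which were Sel1l and Herpud1 in DG- and Sst-like, Sel1l in Pvalb-like and Selenos in DG-, Pvalb- and Sst-like neurons. The other 6 did not pass without it, with edgeR adjusted p from 0.0568 to 0.469, at 0.79 for Sel1l in CA3-like, 0.69 in L4/5 IT-like and 1.1 in Lamp5-like, 1.72 for Herpud1 in Lamp5-like and 1.29 in Pvalb-like, and 0.99 for Os9 in Pvalb-like neurons.

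Outside neurons, 4 of 47 pairs tested passed (8.51%, against 1.04% of all gene-by-type tests and 0.691% in the higher direction). Both Syn-Cre-labelled libraries lay above both flox/flox-labelled libraries in 18 of 54 pairs (33.3%, against 20.2% of all) and below in 4. Here too the share of all pairs that lay below is not given. The calls were Sel1l and Herpud1 in the oligodendrocyte lineage, 2 of 9 genes each in OPC-like (1.91% of all genes were higher) and oligodendrocyte-like nuclei (0.794%).

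In OPC-like nuclei Sel1l stood at 113 and 91.2 CPM under the flox/flox label and at 404 and 186 CPM under the Syn-Cre label (1.54 ± 0.23, edgeR adjusted p = 0.000101). Herpud1 there stood at 26.1 and 38.7 against 126 and 82.5 CPM (1.71 ± 0.23, edgeR adjusted p = 2.55e-05). Syn-Cre-labelled replicate 1 was much the higher library for Sel1l, and the Sel1l call was lost without it (0.84), while without flox/flox-labelled replicate 1 both genes passed (1.72 for Sel1l and 1.46 for Herpud1). In oligodendrocyte-like nuclei Sel1l stood at 112 and 105 against 303 and 184 CPM (1.15 ± 0.23, edgeR adjusted p = 0.0494) and Herpud1 at 51.0 and 47.8 against 144 and 104 CPM (1.31 ± 0.20, edgeR adjusted p = 0.0154). The labels did not overlap, the Sel1l call was lost without Syn-Cre-labelled replicate 1 (0.67), and both calls held without flox/flox-labelled replicate 1 (1.19 and 1.35). The oligodendrocyte-like sums rest on 1844 and 1173 nuclei under the flox/flox label but on 355 and 365 under the Syn-Cre label.

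None of the other 7 members passed in these nuclei. Selenos stood at 32.5 and 45.2 against 47.2 and 27.5 CPM in OPC-like (−0.03) and at 26.3 and 36.0 against 29.4 and 36.9 CPM in oligodendrocyte-like nuclei (0.08), and the labels overlapped in both. Os9 stood at 69.7 and 65.6 against 58.3 and 55.0 CPM in OPC-like nuclei (−0.25, edgeR adjusted p = 0.707). Syvn1 in oligodendrocyte-like nuclei, at 12 and 8.63 against 27.6 and 13.6 CPM, did not pass (0.96, edgeR adjusted p = 0.359). Summed neuron markers were lower under the Syn-Cre label in OPC-like nuclei (1239 and 1244 against 1424 and 1351 CPM), and the labels overlapped in oligodendrocyte-like nuclei (707 and 776 against 855 and 644 CPM). Summed markers of the types themselves were lower, at 8560 and 7607 against 10779 and 9928 CPM for OPC markers in OPC-like nuclei and at 16861 and 14428 against 18907 and 17882 CPM for oligodendrocyte markers in oligodendrocyte-like nuclei, and their part in the result was not tested.

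Astrocyte-like and microglia-like nuclei showed no called member. Sel1l stood at 93.1 and 70.0 against 91.6 and 80.4 CPM in astrocyte-like nuclei (0.08) and at 120 and 106 against 102 and 122 CPM in microglia-like nuclei (−0.06). Herpud1 stood at 52.3 and 40.2 against 63.8 and 48.0 CPM (0.29) and at 85.8 and 71.6 against 82.4 and 70.4 CPM (−0.08), and the labels overlapped in all 4 pairs. In endothelial-like nuclei Herpud1 was at 129 and 128 against 75.3 and 111 CPM, which did not pass (−0.42) and rests on few UMIs.

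Cre RNA also differed among types. It stood at 29.6, 0, 29.0 and 25.1 CPM in Pvalb-like, 20.9, 0, 17.1 and 14.8 in Sst-like, 18, 0, 17.6 and 11.8 in OPC-like and 13.6, 0, 9.99 and 9.30 CPM in Lamp5-like nuclei. It was lower in DG-like (6.76, 0, 5.56 and 7.11 CPM) and L4/5 IT-like neurons (4.02, 0, 3.57 and 4.20 CPM) and lowest of these in CA1-like neurons (0.765, 0, 0.325 and 0.326 CPM). Of these types, Pvalb-like nuclei were highest and CA1-like neurons lowest in each of the 3 libraries with Cre RNA, and oligodendrocyte-like nuclei had 2 Cre UMIs in flox/flox-labelled replicate 1 and 0 in the other libraries. Microglia-like nuclei had 2, 0, 0 and 1 Cre UMIs. Over neuronal types, the log2 fold change between labels had a Pearson r with log2(Cre CPM + 1) of 0.81 for Sel1l (18 types), 0.80 for Herpud1 (16 types), 0.84 for Os9, 0.74 for Selenos, 0.67 for Ube2g2, 0.58 for Syvn1, 0.47 for Vcp, 0.11 for Erlec1 and −0.14 for Ube2j1. With the non-neuronal types included, r was 0.67 for Sel1l (24 types), 0.66 for Herpud1 (22 types), 0.54 for Os9 and Selenos, 0.43 for Syvn1, 0.39 for Ube2g2 and 0.30 for Vcp. Rank correlations (Spearman) over neuronal and over all types were lower for Sel1l (0.66 and 0.45) and Os9 (0.71 and 0.32). For Herpud1 they were higher (0.83 and 0.68). The types share the same libraries and differ in depth, so these values are a description.

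**Figure D4:**
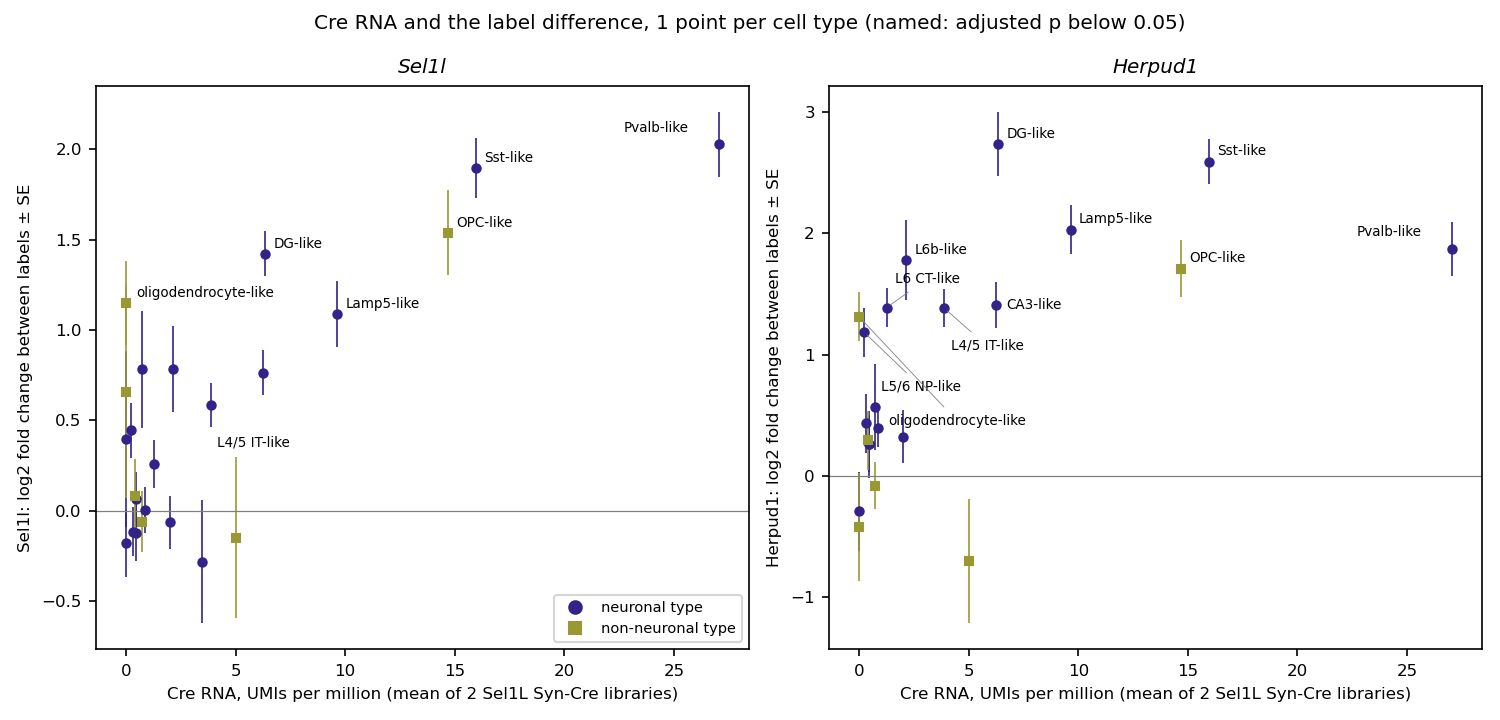
Log2 fold change between labels ± SE (y axis) of Sel1l and Herpud1 against Cre RNA in CPM (x axis, mean of the 2 libraries labelled Sel1L Syn-Cre), 1 point per cell type, with neuronal types as circles, non-neuronal types as squares and names where the adjusted p is below 0.05. Pvalb-, Sst- and Lamp5-like neurons and OPC-like nuclei combine the higher Cre levels with large differences, whereas DG-like neurons and oligodendrocyte-like nuclei have large differences at lower Cre RNA.

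Nuclei were also split by whether they held a Cre UMI. A Cre UMI in a nucleus can come from free RNA, and in flox/flox-labelled replicate 1 oligodendrocyte-like and microglia-like nuclei, in which the Synapsin I promoter is not known to be active, stood at 0.297 and 1.23 CPM of Cre from 2 UMIs each. In that library the 295 neurons with a Cre UMI had 85.4 CPM of Sel1l (95% counting interval 77.0 to 94.6) against 96.9 CPM in neurons without one, and 18.4 against 17.5 CPM of Herpud1. Within the Syn-Cre-labelled libraries, neurons of all types with a Cre UMI (167 and 174) had more of both when summed, with Sel1l at 324 against 153 CPM in replicate 1 and 235 against 127 CPM in replicate 2, and Herpud1 at 132 against 53.5 CPM and 83.6 against 41.7 CPM. Sums over all neurons mix types, and Pvalb-, Sst- and DG-like nuclei held 69, 31 and 21 Cre UMIs in replicate 1 and 63, 23 and 24 in replicate 2. The part of this make-up in the summed difference was not tested. Single types differed from the sum. In Pvalb-like interneurons Sel1l was at 425 against 486 CPM in replicate 1 and 329 against 300 CPM in replicate 2. In DG-like neurons it was at 201 against 237 and 184 against 193 CPM. In L4/5 IT-like neurons nuclei with a Cre UMI had the higher values in both libraries, with Sel1l at 204 against 138 and 172 against 129 CPM and Herpud1 at 178 against 55.3 and 75.3 against 50.5 CPM in nuclei with and without a Cre UMI. A nucleus without a Cre UMI may still express Cre at this depth and one with a Cre UMI may not, and the intervals cover counting error only.

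**Figure D5:**
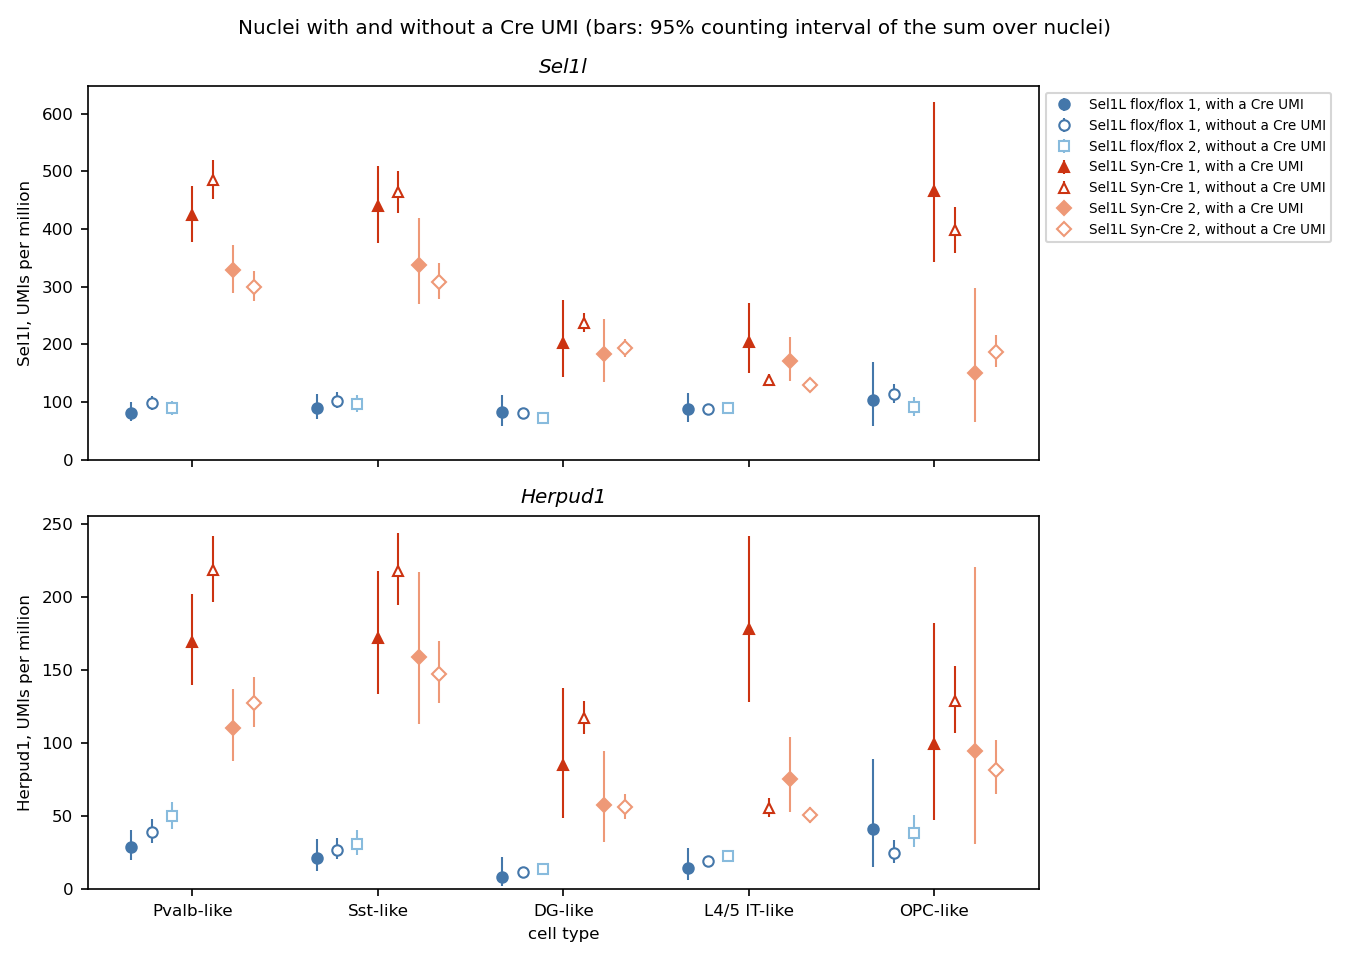
CPM of Sel1l and Herpud1 (y axes) summed over nuclei with (filled) and without (open) a Cre UMI in 5 cell types (x axis) of each library, with 95% counting intervals as bars. In Pvalb-, Sst- and DG-like neurons filled and open points of a Syn-Cre-labelled library lie together and above all flox/flox-labelled points, and in L4/5 IT-like neurons the filled points of these libraries are higher.

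The L4/5 IT-like values changed with how nuclei were named. Clustering without integration set apart 273 nuclei led by Fam129a and Slc7a11, of which 136 came from each Syn-Cre-labelled library, 1 from flox/flox-labelled replicate 2 and 0 from replicate 1, and 226 of them were named L4/5 IT-like by the integrated clusters. The cluster was found from the expression of the same nuclei, so its values are a description, and in it Sel1l stood at 283 and 245 CPM, Herpud1 at 155 and 124 CPM and Selenos at 44.6 and 43.6 CPM in the Syn-Cre-labelled libraries. With the names of that clustering, the remaining L4/5 IT-like nuclei had label differences of 0.04 for Sel1l (edgeR adjusted p = 0.932), 0.35 for Herpud1 (0.406) and 0.71 for Selenos (0.1), none of which passed. Setting the cluster apart took nuclei with high values of these genes from the Syn-Cre-labelled libraries almost alone. The naming also moved other nuclei. L4/5 IT-like nuclei numbered 659, 637, 464 and 638 by library with the integrated clusters and 720, 678, 378 and 528 without integration. The part of these moves in the smaller differences of the 3 pairs was not tested. Over all alternatives the adjusted p of these pairs went from 0.00114 to 0.932 for Sel1l, from 2.50e-14 to 0.406 for Herpud1 and from 4.80e-05 to 0.1 for Selenos.

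The rest of the pathway was read from a list chosen by function, with earlier results of these data known. Its shares of calls are therefore a description. From this list of 44 further ERAD genes, 21 of 671 pairs tested in neuronal types passed (3.13%, against 1.37% of all gene-by-type tests and 0.762% in the higher direction), all higher and in 8 genes, and the median log2 fold change was 0.03. Derl3 passed in 7 types, and without it 14 pairs passed. Its fitted fold changes are not given, since they depend on the prior count where flox/flox-labelled sums are at or near 0. Derl1 (0.72 to 1.46), Derl2 (0.85 to 1.33) and the signal peptide peptidase gene H13 (0.64 to 1.01) passed in DG-, Pvalb- and Sst-like neurons, and Edem1 (1.00 to 1.45), which encodes a mannosidase-like protein that marks glycoproteins for ERAD, in Pvalb- and Sst-like interneurons. Outside neurons 2 of 183 pairs passed (1.09%, against 1.04% of all gene-by-type tests and 0.691% in the higher direction), both Derl3, in OPC-like and oligodendrocyte-like nuclei.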

How the data were processed

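Nuclei of 4 mice were sequenced with the 10x Genomics 3′ v3 chemistry. The authors deposited raw UMI counts, not normalized, of 32286 features per barcode, and the submitters' processing notes name Cell Ranger 6.1.0 and GRCm38; the use of introns and strand in counting is not given in the sources used here. Nuclei with more than 600 genes and under 5% mitochondrial UMIs were kept, and the highest Scrublet scores (scanpy 1.11.5) were left out at 0.8% per 1000 nuclei deposited in a library. Libraries shared 10 to 34 barcodes (0.136% to 0.462% of the smaller).

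The libraries were integrated and clustered in Seurat 5.3.0 (2000 variable features, 17 dimensions, resolution 0.2, then 0.8 for neurons and 0.5 for others). A cluster was named "X-like" with at least 3 listed markers present in at least 10% of its nuclei at 2-fold or more over the rest, and 3868 nuclei stayed unnamed. Counts were summed per library and type and compared with edgeR 4.0.16 (TMM, filterByExpr, quasi-likelihood F test, two-sided, Benjamini-Hochberg over all genes tested in the type, threshold 0.05, prior count 0.125). Printed CPM are scaled by the UMIs of the type in the library alone. Classes and the interaction of type and label were fitted with library as a block. With 2 mice a label, an exact permutation of a single value cannot go below p = 0.333, so no such test was used. Counting intervals are exact 95% Poisson intervals.

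Alternatives were other scalings (RLE, library totals), other filters, the earlier quasi-likelihood method, DESeq2 1.42.0, doublets kept, names without integration, thinned counts, a block for the replicate number and each library left out. The pipeline was tested on simulated data. All 9 genes are reported in the 24 named types tested, choroid plexus-like nuclei (58) and immature oligodendrocyte-like nuclei being too few to test, and other ERAD genes where they passed in at least 2 neuronal types. The members and lists were chosen with earlier results of these data known. Scripts ran in Python 3.11.15 (scipy 1.17.1, numpy 2.4.6, matplotlib 3.10.9) and in R 4.3.3.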

Additional observations from a re-analysis of the deposited data

Results flagged for a closer look

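The label difference of 4 genes stood out because it was not the same in all neuronal types, by edgeR's test of the interaction with Benjamini-Hochberg adjustment. The adjusted p was 1.13e-16 for Sel1l, 1.38e-10 for Herpud1, 0.0014 for Selenos and 0.0255 for Syvn1. The types of a mouse count as separate observations in this test, so these values can be too small. A further result lies outside the comparisons of the 9 genes: 409 UMIs of Cre RNA were counted in the library labelled Sel1L flox/flox replicate 1, where the label names no Cre, against 0 in replicate 2 of that label.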

How the results depend on the processing

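Of the 25 gene-by-type pairs called, Herpud1 in DG-, Lamp5-, Pvalb- and Sst-like, Sel1l in Pvalb- and Sst-like and Selenos in DG- and Sst-like neurons passed in every alternative that tested them. The neuronal count of 21 became 11 with no filter on low counts and 4 of 21 tests when sums were thinned to the smallest total, and lay between 16 and 20 with each library left out. The non-neuronal count of 4 became 0 with no filter (edgeR, against 6 pairs at an unadjusted p under 0.05 with the filter and 3 calls with DESeq2) and 2 with doublets kept, and lay between 2 and 4 with each library left out. The share of all genes at that unadjusted threshold is not given, so the 6 pairs are a count only. The interaction count of 4 became 0 of 1 test with at least 10 counts in every library and 1 of 4 tests after thinning, and lay between 2 and 3 with each library left out. The count for other ERAD genes, 21, became 11 with no filter, 0 of 78 tests and 12 after thinning to the smallest total and to 1000000 UMIs (the latter chosen after seeing the data), and 12 with DESeq2, and lay between 15 and 23 with each library left out. Of the 14 differences against CA1-like neurons 8 passed without flox/flox-labelled replicate 1, an alternative chosen after seeing the data. The class count of 21 became 29 with library totals, 28 over all 4 libraries and 20 in the Syn-Cre-labelled libraries; at least 10 counts in every library and thinning gave no value. Values that turned in sign and passed under either setting were Sel1l against excitatory neurons in the Syn-Cre-labelled libraries (OPC-like 0.96, inhibitory neuron-like 1.08) and Erlec1 with library totals (astrocyte-like 0.38, endothelial-like 0.0639, microglia-like 0.35). Values that passed under neither also turned, such as Sel1l in OPC-like nuclei with library totals (−0.21 to 0.13). The cause was not tested, except that thinning and the stricter filter leave fewer tests. In the interaction fit, 165 of 1461 genes passed with at least 10 counts in every library and 30 of 4909 after thinning to the smallest total. The other shares of all genes under the alternatives are not given. Those counts therefore do not show whether the members moved apart from genes at large.

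With the replicate block 25 neuronal and 4 non-neuronal pairs passed, all 25 pairs called without it among them, and 23 for other ERAD genes. The share of all genes that passed with this block is not given, so these are counts only. The deviations of same-numbered libraries correlated at −0.0883 to 0.236 (median 0.143) over 24 types, above 0.1 in 19 of them. There are only 2 pairs, and since replicate 1 is a male and 2 a female in each label, a shared batch and sex cannot be told apart. Leaving out a library leaves 1 mouse in a label, which is then assumed to vary like the others. Depth limits rare types and, among the members, Syvn1 and Ube2g2 most.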

Other observations

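Immature oligodendrocytes are the stage between precursors and mature oligodendrocytes, and nuclei named as such were too few in 1 library to be tested. Sel1l stood there at 137 and 98.6 CPM in the flox/flox-labelled libraries and at 473 and 160 CPM in the Syn-Cre-labelled libraries, from 98, 39, 58 and 5 UMIs. Herpud1 stood at 25.2 and 32.9 against 180 and 160 CPM, from 18, 13, 22 and 5 UMIs. In both genes the labels did not overlap, with the Syn-Cre-labelled libraries above. In the non-neuronal types tested, 20.2% of all pairs with at least 10 UMIs lay so. The Syn-Cre-labelled replicate 2 values come from 9 nuclei and 5 UMIs of each gene, so counting error is large. The other members are not shown for these nuclei. Choroid plexus-like nuclei, 6, 0, 39 and 13 by library, held 4, 0, 25 and 5 UMIs of Sel1l and 3, 0, 21 and 4 of Herpud1, which is too few for a comparison.

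Nuclei of the L4/5 IT-like type with a Derl3 UMI had more Sel1l and Herpud1 than those without one in both Syn-Cre-labelled libraries. Sel1l stood at 252 and 225 CPM with a Derl3 UMI and at 124.3 and 122.6 CPM without one, and Herpud1 at 168 and 107 against 44.3 and 46.7 CPM. The nuclei were picked by a gene that itself differed between labels, so these values are a description.

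Of 11 clusters that no marker list named, 10 were tested, and 0 of 73 member pairs passed in edgeR, where 0.0769% of all gene-by-cluster tests there passed. At an unadjusted p under 0.05 there were 11 such pairs. The share of all genes at that threshold is not given, so this count shows nothing particular to the members.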
